A study of Mus musculus with 12 samples.

Results

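Gene expression was compared between progenitor B cells with floxed Sox4 alleles (Sox4fl/fl) and cells of that genotype that also carried SE-Cre (called SE-Cre cells), both primary cells of C57BL/6 embryonic fetal liver. The comparison rests on 6 of the 12 single-colour Illumina mouse bead arrays of the series, 3 for each genotype, chosen by their labelled genotype and normalized apart from the other 6. The remaining arrays held immortalized cells and were not used here. RNA came from progenitor B cells that the labels describe as more than 95% pure. The labels give the 2 groups the same strain, tissue, embryonic stage and floxed alleles, and differ in SE-Cre. The labels do not spell out what drives SE-Cre or give the embryonic day. No group carried SE-Cre with intact Sox4, so the effects of Cre and of the lost gene cannot be told apart. Nothing in the labels says that the 3 samples of a group were separate embryos or cultures, so p-values measure only the spread between samples, which may be technical.

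Sox4 encodes a transcription factor of the SoxC group, which binds DNA through an HMG box and shares that group with Sox11 and Sox12. In mice, B cell development stops near the pro-B stage without it. A pro-B cell assembles its immunoglobulin heavy chain gene with the Rag1 and Rag2 recombinase and survives on interleukin 7. It makes the surrogate light chain proteins Igll1 and Vpreb1 ahead of the pre-B cell receptor.

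Median probe intensity lay between 83.4 and 90.2 on the 6 arrays, and 36.1% to 38.0% of the 45281 probes were detected on each, a probe being detected where its deposited detection p-value was under 0.05. Across the kept probes, which are not independent replicates, arrays correlated at 0.987 to 0.991 within a group and at 0.964 to 0.968 between groups. The first principal component held 63.8% of the variance and the second 11%. No 2 arrays held identical values. All levels below are log2 normalized intensities of a gene's brightest kept probe, and levels of different probes are not comparable. Each difference is SE-Cre minus Sox4fl/fl on that scale, with its standard error over 3 against 3 arrays and a p-value from limma adjusted over all kept probes. In bulk RNA, fewer cells of a type and less RNA per cell cannot be told apart.

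The Sox4 probe read 10.67, 10.55 and 10.60 on the Sox4fl/fl arrays and 4.60, 4.65 and 4.27 on the SE-Cre arrays. Every SE-Cre array was thus far below every Sox4fl/fl array (difference -6.10, SE 0.15, adjusted p = 3.64e-10), and 1 of the 3 SE-Cre arrays still detected the probe. Without background correction the difference was -4.20. The other Sox4 probe did not pass the detection filter, being detected on 2 Sox4fl/fl arrays and no SE-Cre array.

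By gene, 1469 of 8944 passed an adjusted p of 0.05 (16.4%), 670 of them higher in SE-Cre cells (7.49%) and 799 lower (8.93%). At the probe level 2516 of 16454 passed (15.3%). Falls were larger than rises: the median size was 0.83 among lower genes and 0.69 among higher genes, and 280 fell and 145 rose at least 2-fold. At 4-fold or more there were 70 falls and 25 rises, and at 8-fold or more 19 falls and 7 rises. The median difference over all genes was 0.02. For 100 lower genes no SE-Cre array detected the probe, and for 33 higher genes no Sox4fl/fl array did. Their folds are given below as "at least", computed against the higher of the probe's own signal and the lowest detected signal on each array of the dim group. The groups did not overlap for 3128 genes (35%), a count that needs no passed test. Leaving out Sox4fl/fl replicate 1 or 2 lowered the count of passed genes to 964 or 943. Part of that loss lies in the filter: a gene detected only on the 3 Sox4fl/fl arrays is no longer detected on 3 arrays once any of them is left out, and the same holds for the SE-Cre arrays. When arrays were instead only scaled to one median, 425 genes were higher and 872 lower, so the share of higher calls fell from 45.6% to 32.8%. Under that scaling the median probe moved to -0.04, from 0.02. With detection required on every array, 618 of 7518 genes were higher and 603 lower, so 50.6% of the calls were higher. The excess of lower genes was thus not seen among genes detected throughout.

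**Figure D1:**
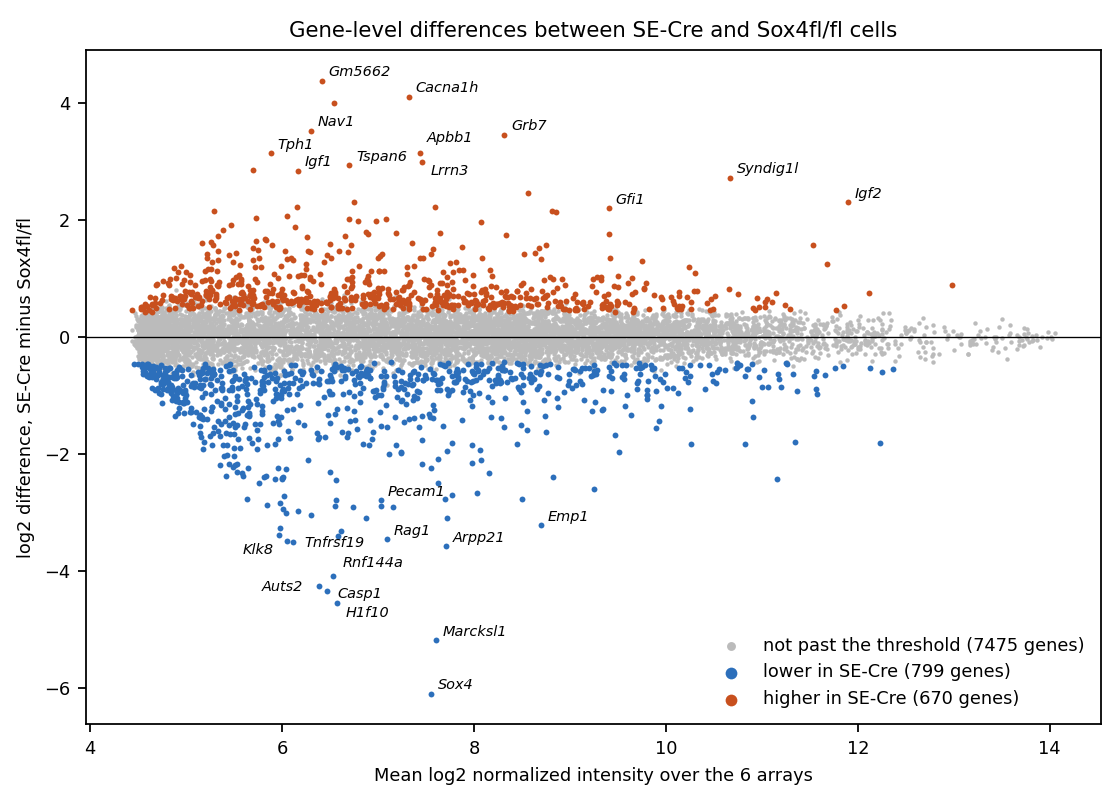
Difference of each of the 8944 genes (vertical axis, log2, SE-Cre minus Sox4fl/fl) against its mean level over the 6 arrays (horizontal axis, log2 normalized intensity), with the 670 higher and 799 lower genes in colour. Sox4 at -6.10 and Marcksl1 at -5.19 lie lowest, and the named genes at the top reach 4.38.

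The genes that fell most spanned the cytoskeleton, chromatin, surface receptors and inflammation. Marcksl1, an actin-binding MARCKS-like protein gene, read 10.07, 10.22 and 10.32 in Sox4fl/fl and 4.97, 5.13 and 4.94 in SE-Cre cells, and all 4 of its kept probes fell. H1f10, a linker histone gene, read 8.80, 8.97 and 8.79 against 4.29, 4.27 and 4.32. Auts2, whose protein joins a Polycomb complex, read 8.50, 8.65 and 8.42 against 4.35, 4.26 and 4.14. No SE-Cre array detected H1f10 or Auts2, so only lower bounds of 19.1-fold and 15.2-fold can be set. Casp1, the caspase that processes interleukin 1 beta, read 8.67, 8.65 and 8.60 against 4.22, 4.33 and 4.32, at least 16.5-fold lower. In these genes the 3 arrays of a group read nearly alike.

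Behind these came a set of membrane and lysosomal genes. Fcer1g, the signalling chain of Fc receptors, read 8.24, 8.28 and 8.29 in Sox4fl/fl cells and 4.89, 5.05 and 4.93 in SE-Cre cells (difference -3.31, SE 0.13, adjusted p = 1.08e-08). Adgre5, the adhesion receptor CD97, fell at least 8.09-fold and was detected on no SE-Cre array, by 3 of 3 probes. Emp1, an epithelial membrane protein gene, was bright in both groups and went from 10.17, 10.37 and 10.38 to 6.97, 7.27 and 7.03. Lgmn, the lysosomal protease legumain, read 8.32, 8.53 and 8.42 against 5.59, 4.87 and 5.52, with SE-Cre replicate 2 the lowest. Snx10, a sorting nexin gene of endosomes, differed by -2.88 (SE 0.15), and Tmem176b by -3.04 (SE 0.17).

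Regulators and metabolic genes fell alongside. Eif4e3, a cap-binding translation factor, differed by -3.09 (SE 0.19, 3 of 3 probes). Tead1, the DNA-binding partner of the Hippo effector Yap, read 7.23, 7.52 and 7.11 against 4.41, 4.43 and 4.37, at least 6.48-fold lower. The kinase gene Nuak1 differed by -2.84 (SE 0.16), the polarity gene Pard6g by -2.79 (SE 0.21) and the MAGE family gene Maged1 by -2.90 (SE 0.15). Gcat, which converts a threonine product to glycine, read 8.27, 8.27 and 8.03 against 5.37, 5.24 and 5.24. Tdrkh, a Tudor protein gene of the piRNA pathway, was tight at 7.98, 8.04 and 7.98 in Sox4fl/fl cells and spread over 5.67, 4.70 and 4.97 in SE-Cre cells. The other falls among the 30 were Rnf144a, Arpp21, Tnfrsf19, Klk8, Rag1, Capn2, Tmem98, Slc7a3, Pxylp1, 2610035D17Rik, Pecam1 and Tmem255a. No SE-Cre array detected 9 of the 30, for which only bounds hold. Of the 13 with several kept probes, every probe read lower in SE-Cre cells, and in 11 every probe passed the test.

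Rises were led by Gm5662, a predicted gene that no Sox4fl/fl array detected and that read 8.60, 8.60 and 8.61 in SE-Cre cells, at least 16.5-fold higher. Cacna1h, a T-type calcium channel gene, read 5.11, 5.50 and 5.19 in Sox4fl/fl and 9.18, 9.45 and 9.50 in SE-Cre cells. Grb7, an adaptor of receptor tyrosine kinases, read 6.39, 6.83 and 6.54 against 9.96, 10.03 and 10.15. Both were detected on all 6 arrays, with differences of 4.11 (SE 0.16) and 3.46 (SE 0.15). The rises included a pair of enzymes that use tryptophan or its products. Tph1, which hydroxylates tryptophan on the way to serotonin, rose at least 7.40-fold from no detection, and Kynu, which encodes kynureninase, went from 7.65, 7.28 and 7.08 to 9.78, 9.73 and 9.87.

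Further rises came from signalling, surface and metabolic genes. Gfi1, a transcriptional repressor of blood progenitors, read 8.49, 8.22 and 8.21 against 10.35, 10.32 and 10.86 (difference 2.20, SE 0.17, adjusted p = 2.62e-06). Il2ra, which encodes CD25 and marks the pre-B stage, read 5.04, 5.03 and 4.98 against 7.24, 7.29 and 6.72. Tbxa2r, the thromboxane receptor gene, differed by 2.16 (SE 0.14) and Tenm4, a teneurin gene, by 2.14 (SE 0.14, 3 of 3 probes). Pnp2, a purine nucleoside phosphorylase gene, differed by 2.22 (SE 0.15). Aph1b, a subunit of gamma-secretase, differed by 2.01 (SE 0.16), and Acer3, an alkaline ceramidase gene, by 1.88 (SE 0.20). Zfp979, a zinc finger gene, was the most variable of the 30 largest rises, at 4.83, 5.02 and 5.30 against 7.81, 7.45 and 6.55 (difference 2.23, SE 0.26). Bean1 rose at least 3.51-fold from no detection. Tspan6, Trmt9b, Col26a1, Ppm1h, Pcbp3, Rarres1 and 0610040J01Rik were also among the 30 largest. Each of the 60 largest rises and falls passed the test under every alternative without a minimum fold that still held it (highest adjusted p = 0.0117, for Zfp979). The sizes depend on the background: the median of the 30 falls was -3.16, or -1.84 without background correction, and that of the 30 rises 2.26, or 1.59.

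**Figure D2:**
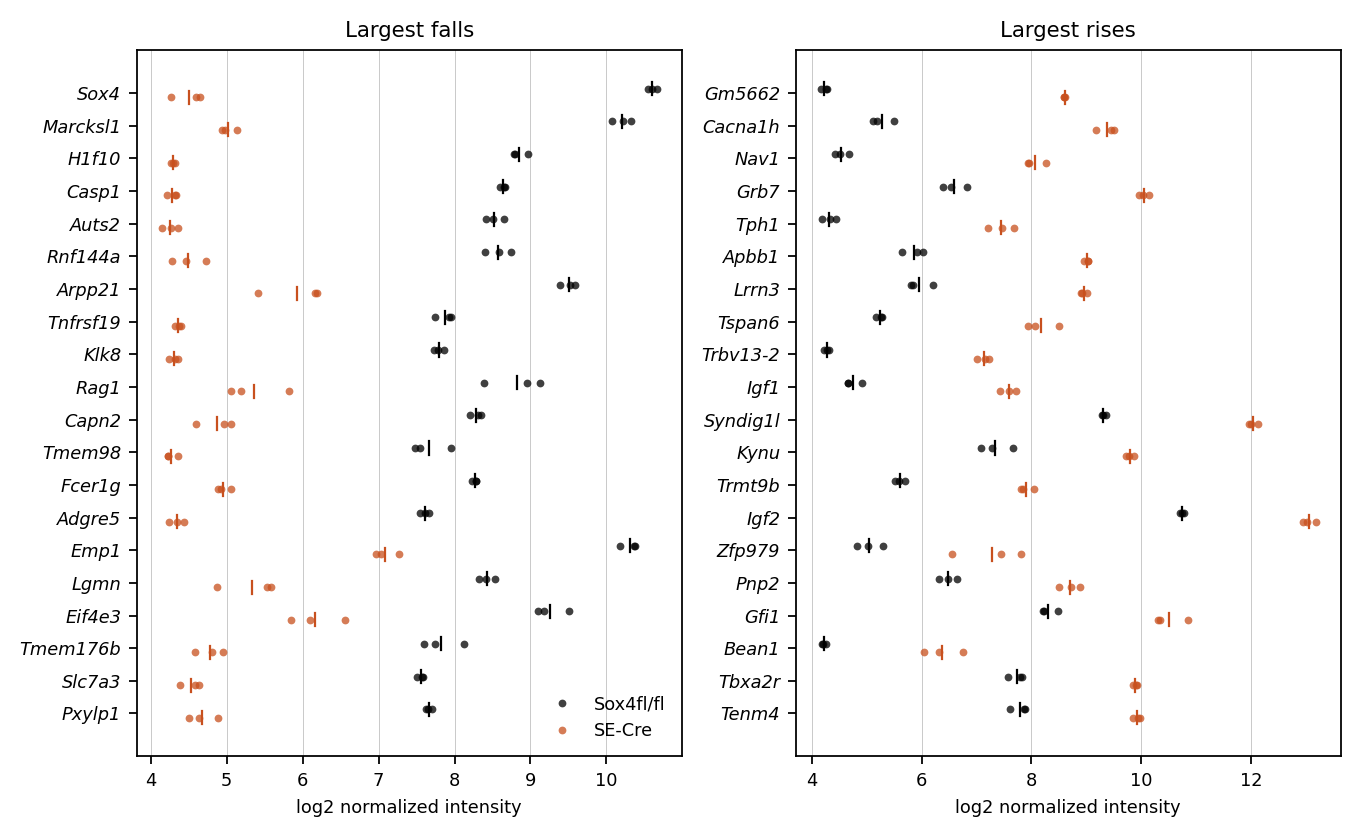
Level on each array (horizontal axis, log2 normalized intensity) of 20 of the largest falls and 20 of the largest rises, with Sox4fl/fl arrays in black, SE-Cre arrays in orange and a tick at each mean of 3. The groups are apart for every gene drawn, as the rule for choosing these genes required, and the spread within a group is widest for Zfp979 among the rises.

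Sox proteins bind motifs close to AACAAAG, so the 250 bases before the gene start were searched for it on both strands in the RefSeq promoters of build GRCm38.p6, which covered 23 of the 30 falls and 19 of the 30 rises. Casp1 alone among those falls and Zfp979 alone among those rises held it, and both windows are shown with the match in capitals.
Casp1: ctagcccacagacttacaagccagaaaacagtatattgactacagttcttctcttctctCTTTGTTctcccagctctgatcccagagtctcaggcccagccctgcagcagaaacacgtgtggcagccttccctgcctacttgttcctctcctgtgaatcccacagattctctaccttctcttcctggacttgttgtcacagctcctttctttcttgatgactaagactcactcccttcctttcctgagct
Zfp979: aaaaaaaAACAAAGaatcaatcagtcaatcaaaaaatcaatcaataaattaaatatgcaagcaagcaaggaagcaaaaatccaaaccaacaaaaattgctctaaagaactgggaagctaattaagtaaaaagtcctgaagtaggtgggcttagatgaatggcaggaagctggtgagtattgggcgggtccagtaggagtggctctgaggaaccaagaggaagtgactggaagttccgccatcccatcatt
The Casp1 window is chr9:5298267-5298516 on the plus strand, with the motif on the other strand, and the Zfp979 window is chr4:147642509-147642758 on the minus strand. Over all passed genes with a promoter, 6.21% of the lower and 4.08% of the higher genes held AACAAAG, against 4.11% of kept genes and 5.77% of all genes in the promoter table. The related AACAAT was in 7.92% of lower, 5.75% of higher and 6.32% of kept genes, and ATCAAAG in 3.11%, 2.23% and 2.78%. Of the 23 largest falls with a promoter, 4 held AACAAT (17.4%) and 3 ATCAAAG (13%), and of the 19 largest rises 3 (15.8%) and 2 (10.5%). Those genes had 38 and 29 promoter windows, and the 7325 kept genes had 9331. These are matches of letters and not sites of binding.

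**Figure D3:**
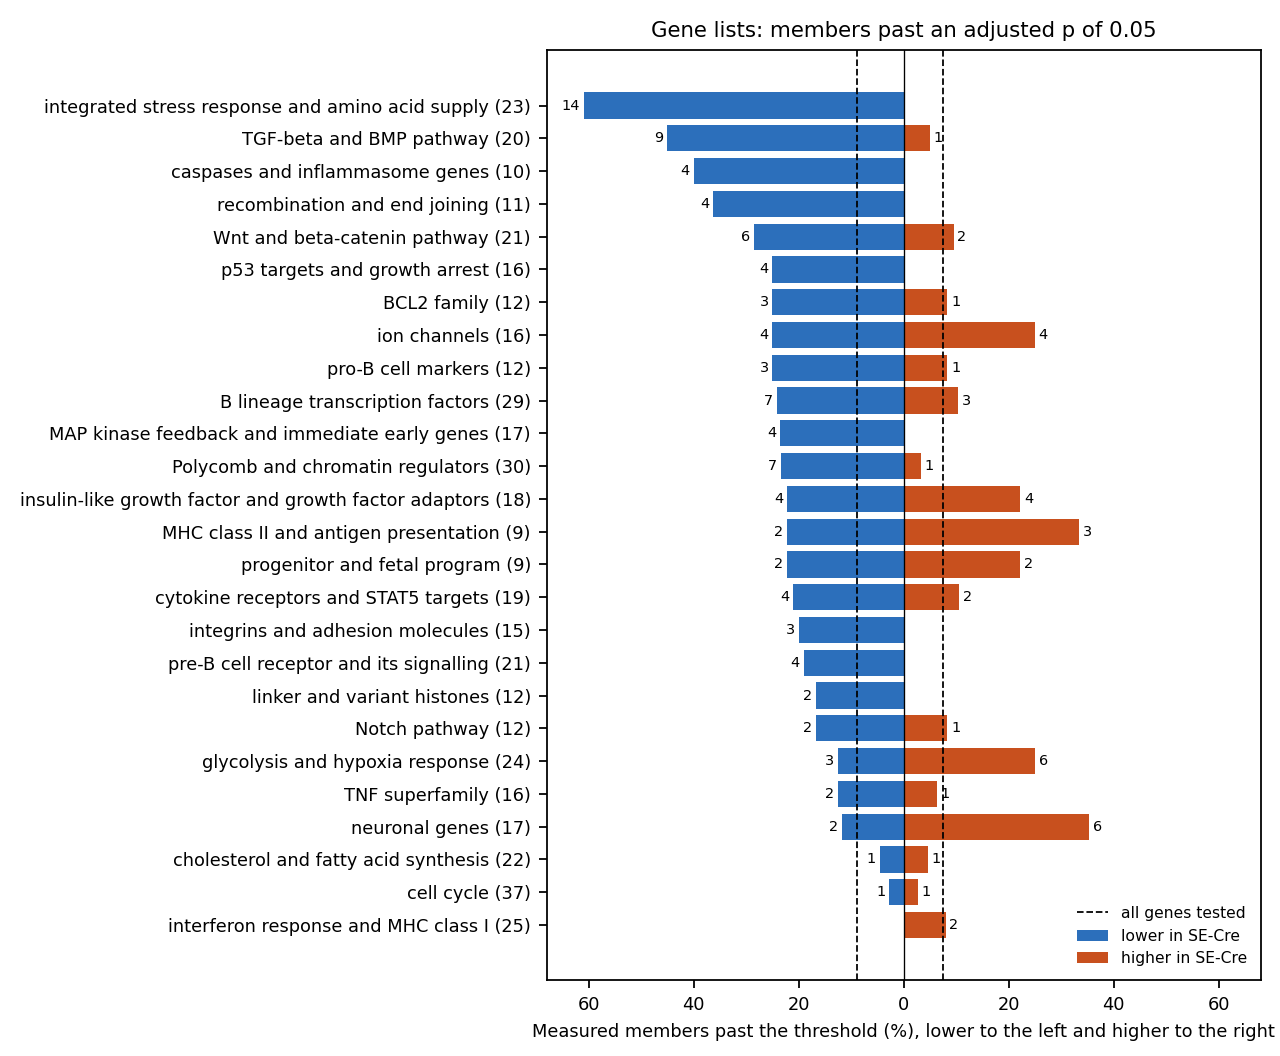
Share of the measured members that passed an adjusted p of 0.05 (horizontal axis, percent) in gene lists with at least 9 measured members, 1 list left out, lower in SE-Cre to the left and higher to the right, with the number of genes beside each bar and the number measured in brackets. Dashed lines mark the shares over all genes, 8.93% lower and 7.49% higher. The lists were chosen with earlier results of these data known, so bars beyond the lines are not a test of the lists.

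Most pro-B cell markers were detected on every array and did not pass the test. Of 12 measured markers 8 did not pass, 3 fell and 1 rose (median -0.02), and the differences were -0.01 (SE 0.15) for Igll1, -0.09 (SE 0.15) for Vpreb1, 0.09 (SE 0.14) for Cd79b and 0.10 (SE 0.15) for Il7r, the interleukin 7 receptor gene. Of the 5 kept Il7r probes 2 dimmer ones were higher past the threshold, while the brightest did not pass. Rag1 fell from 9.12, 8.95 and 8.39 to 5.06, 5.82 and 5.19 (difference -3.47, SE 0.23). Dntt, the template-free DNA polymerase of junctions, was dim and fell at least 1.44-fold. Ebf1, an early B lineage factor, differed by -0.49 (adjusted p = 0.0286) and Kit, the stem cell factor receptor, by 0.48 (adjusted p = 0.0462). The Dntt, Ebf1 and Kit calls were lost under some alternatives: 2 markers passed without SE-Cre replicate 1, and 1 passed without SE-Cre replicate 2 or without any Sox4fl/fl array.

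**Figure D4:**
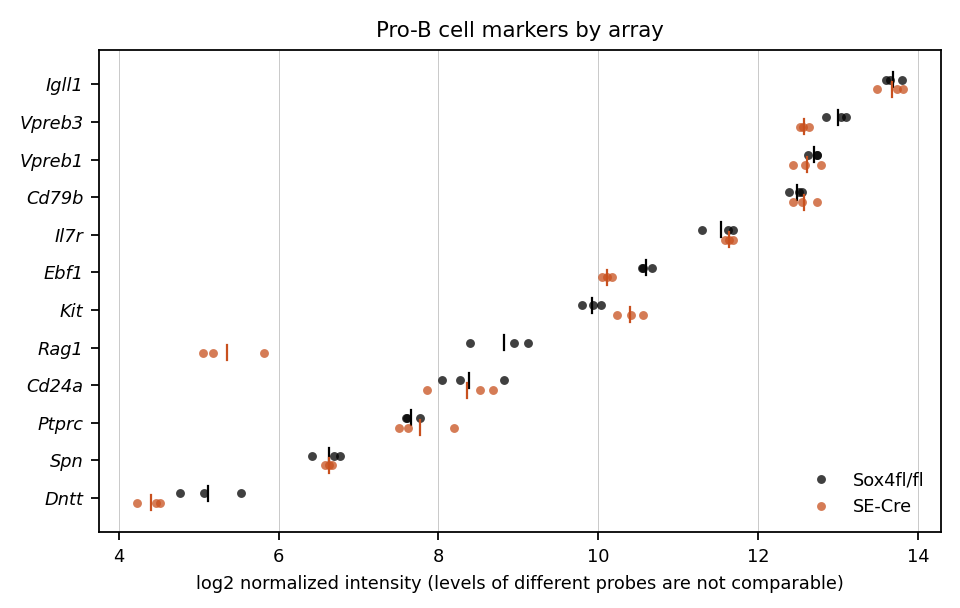
Level on each array (horizontal axis, log2 normalized intensity) of the 12 measured pro-B cell markers, with Sox4fl/fl arrays in black, SE-Cre arrays in orange and a tick at each mean of 3. Rag1 is the only marker whose group means are more than 3 units apart.

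Markers of other blood and liver cells were mostly at background. No array detected any of the 6 hepatocyte markers, Alb and Afp included. Of 12 myeloid markers 3 were measured and 7 were detected on no array, among them Elane, Ctsg and S100a8. The lysozyme genes rose, with Lyz2 at 5.88, 5.84 and 6.25 against 7.85, 8.03 and 8.01 and Lyz1 at 7.73, 7.02 and 7.64 against 9.0, 9.26 and 9.37. These genes are near-identical, and each probe may pick up RNA of both. The summed linear intensity of the myeloid list was 384.8 to 477.4 in Sox4fl/fl and 950.2 to 1126 in SE-Cre cells. Without the lysozyme genes it was 197.8 to 206.7 against 205.8 to 212.4. All such sums count undetected genes at their background signal. The 6 hepatocyte markers alone summed to 115.9 to 123.6 against 120.4 to 125.6. Similar sums of mostly undetected genes therefore cannot show whether the share of such cells changed. Of 8 stromal and endothelial markers, Pecam1 (difference -2.80, 3 of 3 probes) and Vim (-1.11) fell, while Cdh5, Kdr and Col3a1 were detected on no array. That list summed to 1342 to 1449 against 563.7 to 757.5, and without Pecam1 and Vim to 152.2 to 162.1 against 148.6 to 167.3. The dendritic cell list of 6 genes held Ly6d, which was not among the markers first planned and was bright on the Sox4fl/fl arrays. Ly6d fell from 10.04, 9.87 and 10.16 to 7.73, 7.39 and 7.74, and Bst2 differed by -0.71 (adjusted p = 0.0445). Whether the Ly6d RNA came from dendritic cells was not tested. Bst2 no longer passed when replicate 1 or 2 of Sox4fl/fl or replicate 1 or 3 of SE-Cre was left out. Its call was also lost without background correction, with the authors' processed values and with no detection filter. That list summed to 1861 to 2487 against 1212 to 1547, and without Ly6d and Bst2 to 875.4 to 1395 against 981.3 to 1311. In the T and NK list Klrd1 fell from 6.68, 6.56 and 6.61 to 4.85, 4.55 and 5.23. Thy1, the other measured member, did not pass (0.47), and Cd3e, Cd3g, Cd4 and Nkg7 were detected on no array. The list summed to 303 to 335.6 against 273.3 to 334.7, and without Klrd1 to 205.4 to 232.8 against 242.5 to 305.8. In the erythroid list Car2 rose (1.01, SE 0.16), Alas2 and Hba-a1 were detected on no array, and the sum was 4862 to 5246 against 4812 to 5971. The megakaryocyte and mast cell list had 1 measured marker, Gp9, which did not pass (-0.25), and summed to 150 to 156.4 against 144.3 to 151.1.

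B cell identity genes moved in both directions. Of 4 measured mature B cell markers 1 rose and 1 fell, and neither of these was among the markers first planned. Cxcr5, the follicular homing receptor, rose from 6.44, 6.31 and 6.37 to 7.52, 7.47 and 7.27. Cd1d1, a lipid-presenting molecule, fell from 9.51, 9.25 and 9.20 to 6.89, 7.01 and 7.08. The planned markers Ms4a1 (-0.16) and Fcer2a (-0.02) did not pass. Of 29 B lineage transcription factors, 3 rose and 7 fell (median -0.32, against 0.02 over all genes). Besides Gfi1, Fli1 rose by 0.79 and Pax5 at least 1.63-fold from no detection. The Pax5 probe was dim and was kept through the SE-Cre arrays alone. Its difference was 0.89, and as small as 0.30 under the alternatives. Gfi1b, the paralog of Gfi1, moved the other way, from 5.92, 6.36 and 6.63 to 4.86, 5.17 and 4.99. Zfp521 fell from 6.05, 6.24 and 6.29 to 4.77, 4.97 and 4.91, and Irf4 from 8.52, 8.51 and 8.46 to 7.54, 7.35 and 7.36. Foxo1 (-0.95), Lef1 (-0.99), Pou2f2 (-0.64) and Ebf1 were the other falls. The E protein genes Tcf3 (-0.37), Tcf4 (-0.46) and Tcf12 (-0.37) and Ikzf1 (-0.25) did not pass. In the 9 measured progenitor and fetal genes, Bmi1 (-0.93) and Lin28b (at least 1.28-fold) fell and Lmo2 (0.67) and Kit rose, and 2 genes passed without Sox4fl/fl replicate 1 or 2.

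Recombination genes fell where they passed. Of 11 measured members 4 fell and none rose (median -0.20). Rag2, dim in Sox4fl/fl cells at 5.16, 5.16 and 5.25, was detected on no SE-Cre array, and Lig4, the ligase of end joining, differed by -0.93 (adjusted p = 0.0265). The end joining genes Xrcc6 (-0.12), Prkdc (-0.07) and Nhej1 (0.10) did not pass. The count was 2 without SE-Cre replicate 1 or Sox4fl/fl replicate 1, and 1 without Sox4fl/fl replicate 2 or 3. Of 21 genes of the pre-B cell receptor and its signalling, 4 fell and none rose (median -0.07). That is 19.0%, near the 16.4% of all genes that passed. Blk, a Src family kinase gene, went from 9.15, 9.06 and 9.04 to 5.90, 6.47 and 6.57. The phosphatase gene Ptpn6 (-0.77), the adaptor gene Blnk (-0.70, adjusted p = 0.03) and the kinase gene Prkcb (-0.47, adjusted p = 0.0393) fell less. The count was 2 without SE-Cre replicate 1 or Sox4fl/fl replicate 1 or 2. Syk (0.37) and Btk (0.27) did not pass. The one measured antigen receptor segment, Trbv13-2, was at least 5.90-fold higher by one kept probe and did not pass by the other.

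TGF-beta and BMP signalling passes from a ligand through paired receptor kinases to Smad proteins that enter the nucleus. Of 20 measured members of that pathway 9 fell and 1 rose (median -0.46). The ligand gene Tgfb3 read 7.18, 7.01 and 6.85 in Sox4fl/fl and 4.31, 4.60 and 4.93 in SE-Cre cells (difference -2.40, SE 0.18, adjusted p = 1.42e-06). Among receptors, Bmpr2 fell from 8.66, 8.39 and 8.58 to 6.38, 6.58 and 6.13 and Acvr1 from 6.77, 6.65 and 6.77 to 5.46, 5.84 and 5.17. Tgfbr1 fell less (-0.88, SE 0.14), while Tgfbr2 did not pass (0.23). Among the Smad genes, Smad1 fell at least 3.62-fold, from 6.43, 6.28 and 6.64 to no detection. Smad3 went from 7.47, 7.17 and 6.97 to 4.81, 5.08 and 4.55, by 2 of 2 probes. Smad2 (-0.47) and Smad5 (-0.45) did not pass. Eng, the co-receptor endoglin, was the rise, at 5.89, 5.92 and 6.07 against 7.42, 7.26 and 7.56. Tgfbr3 and Tgif1 differed by -0.57 and -0.51, and Ski, which no SE-Cre array detected, was at least 1.25-fold lower. Each of these calls was lost under at least 5 alternatives. The count of 10 was 6 without Sox4fl/fl replicate 1 or 2.

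Insulin-like growth factors and their receptors split. Of 18 measured genes of this axis and its adaptors, 4 rose and 4 fell (median 0.02). Igf1 rose from 4.91, 4.65 and 4.65 to 7.72, 7.42 and 7.60, by 2 of 2 probes. Igf2 was already bright at 10.75, 10.71 and 10.78 and reached 13.02, 13.19 and 12.94 (difference 2.30, SE 0.14, adjusted p = 2.73e-07). The ligands and Grb7 were higher on every SE-Cre array. Igfbp4, which binds these ligands outside the cell, fell from 9.69, 9.88 and 10.10 to 7.14, 7.36 and 6.84. The receptor genes Igf1r (-0.96, SE 0.14) and Insr (-0.78, SE 0.17) fell, as did Irs2, at least 1.22-fold. Igf2r, which clears Igf2, rose by 0.58 (adjusted p = 0.0148). The Igf2r call was lost with scaling to a common median and without Sox4fl/fl replicate 2 or 3. Irs1 (0.44), Grb2 (-0.01) and Grb10 (-0.43) did not pass.

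Some genes of the inflammasome fell together with Casp1. Of 10 measured caspase and inflammasome genes 4 fell and none rose (median -0.20), or 40% passed against 16.4% of all genes. Another 6 on the array did not pass the detection filter. Aim2, a sensor of cytosolic DNA, read 5.99, 6.17 and 6.40 against 4.29, 4.31 and 4.45, at least 3.02-fold lower. Casp4, the neighbour of Casp1 on chromosome 9, fell at least 2.66-fold by 2 of 2 probes. Gsdmd, the pore protein these caspases cleave, fell from 6.53, 6.50 and 6.40 to 5.59, 5.70 and 5.39. The apoptotic caspase genes Casp8 (-0.13) and Casp9 (-0.02) and the adaptor gene Pycard (-0.11) did not pass. The list count was 2 without any Sox4fl/fl array, through the detection filter. Of 12 BCL2 family genes 3 fell and 1 rose (median -0.09): Bmf, a pro-apoptotic member, fell at least 2.60-fold, Pmaip1 (-1.06) and Bcl2l11 (-0.54, adjusted p = 0.0305) fell, and Bad rose by 0.55 (adjusted p = 0.0297). That count was 2 without SE-Cre replicate 1 or Sox4fl/fl replicate 3 and 1 without Sox4fl/fl replicate 1 or 2. Of 16 p53 and growth arrest genes 4 fell and none rose (median -0.13), or 25% passed against 16.4% of all genes. Gadd45a fell most, at 7.20, 6.78 and 6.70 against 5.81, 5.32 and 5.19. Trp53inp1 (-0.68), Btg1 (-0.64) and Sesn3 (-0.60, adjusted p = 0.0454) followed. The Sesn3 call was lost under 8 of 13 alternatives. Cdkn1a (-0.15) and Mdm2 (-0.10) did not pass.

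The integrated stress response raises genes of amino acid supply through the factor Atf4. Of 23 measured genes of this group 14 fell and none rose (median -0.51). Slc7a3, a carrier of cationic amino acids, fell most, from 7.51, 7.58 and 7.57 to 4.63, 4.58 and 4.39. Chac1, which degrades glutathione, read 10.35, 10.57 and 10.01 against 8.46, 8.82 and 8.59. Enzymes of amino acid and folate metabolism followed. Gpt2 differed by -1.14 (SE 0.15), Shmt2 by -0.94 (SE 0.15), Asns by -0.86 (SE 0.14) and Mthfd2 by -0.86 (SE 0.14), and Cth fell at least 1.85-fold. The smaller falls were Atf4 (-0.51, adjusted p = 0.0462), Atf5 (-0.64), Trib3 (-0.57), Eif4ebp1 (-0.73), Aldh18a1 (-0.64), Aars (-0.44) and Phgdh (-0.45, adjusted p = 0.0496), each lost under at least 3 alternatives. The count of 14 was 9 without SE-Cre replicate 1 or Sox4fl/fl replicate 3, and 7 without SE-Cre replicate 3 or Sox4fl/fl replicate 1 or 2. Ddit3 (-0.20), Psat1 (-0.37) and Slc3a2 (-0.11) did not pass.

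**Figure D5:**
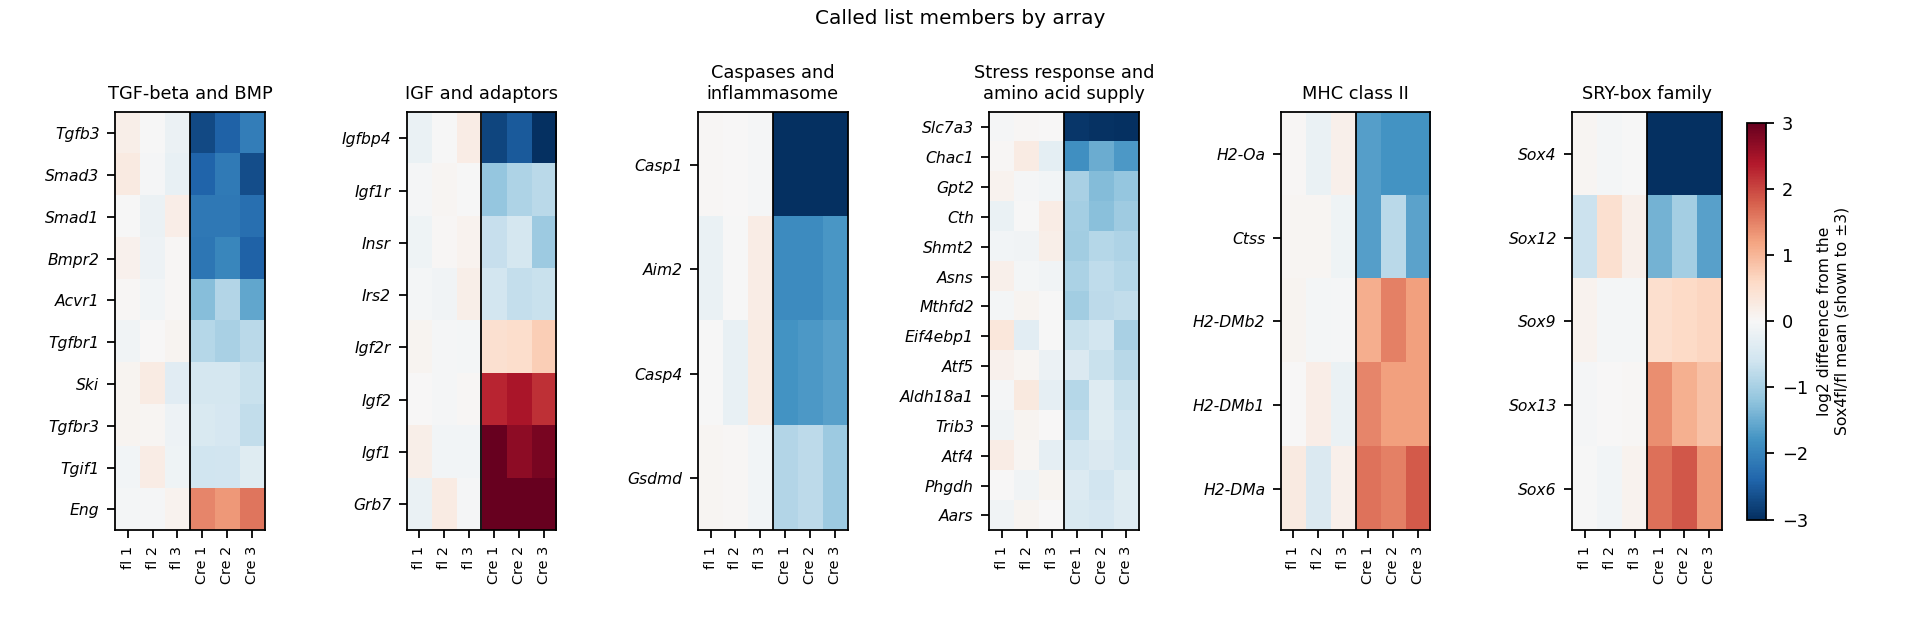
Difference of each array from the mean of the 3 Sox4fl/fl arrays (colour, log2, shown to 3 either way) for the members of 6 lists that passed an adjusted p of 0.05, with Sox4fl/fl arrays (fl) to the left and SE-Cre arrays (Cre) to the right of the line. Stress response and caspase members are lower on the SE-Cre arrays, while the IGF, MHC class II and SRY-box lists hold members of both directions.

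Antigen presentation genes also split. Of 9 measured MHC class II genes 3 rose and 2 fell (median 0.15). H2-DMa, part of the editor that loads peptides, rose from 5.27, 4.57 and 5.15 to 6.63, 6.52 and 6.83. Its partners H2-DMb1 (1.31, SE 0.15) and H2-DMb2 (1.28, SE 0.15) rose by a similar size, but they are near-identical copies and may share signal. H2-Oa, part of the inhibitor of that editor, moved the other way, from 7.29, 7.05 and 7.41 to 5.60, 5.46 and 5.47. Ctss, the protease that trims the invariant chain, read 6.39, 6.41 and 6.22 against 4.69, 5.52 and 4.73. The classical genes H2-Ab1 (0.15) and H2-Eb1 (0.00) and the invariant chain gene Cd74 (-0.06) did not pass. Of 25 interferon and MHC class I genes 2 rose, Gbp2 (0.70) and Igtp (0.54), and none fell (median 0.03). Only 1 of these 2 calls was left without any Sox4fl/fl array or SE-Cre replicate 2. Up to 5 rose under other alternatives, with Tap1, Tap2 and Psmb8 passing without background correction, with the authors' processed values and with a trended robust variance.

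Other members of the SRY-box family were measured beside Sox4. Of 7 kept genes of 17, 3 rose and 2 fell (median 0.26), Sox4 included. Sox6 rose at least 2.65-fold and Sox13 at least 1.87-fold, both from no detection on the Sox4fl/fl arrays. Sox6 read 6.02, 6.23 and 5.66 and Sox13 read 5.75, 5.43 and 5.23 in SE-Cre cells. The SoxC member Sox12 was variable, at 5.98, 7.11 and 6.78 against 5.20, 5.61 and 4.99 (difference -1.36, SE 0.26, adjusted p = 0.00324). Sox11, the remaining SoxC member, did not pass (-0.08), and Sox9 rose by 0.58 (adjusted p = 0.013). The Sox9 call was lost under 4 alternatives: no background correction, the authors' processed values, common-median scaling and without Sox4fl/fl replicate 2 (adjusted p up to 0.103). The family count was 3 without any SE-Cre array, since Sox6 and Sox13 were detected only there. The Sox12 call was lost with no detection filter (adjusted p = 0.063).

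Changes among cytoskeletal genes went in both directions. Dock9, a guanine nucleotide exchange factor gene, fell from 6.99, 7.24 and 7.20 to 4.51, 4.89 and 4.73. Tpm4, a tropomyosin gene, fell from 12.14, 12.08 and 12.52 to 10.52, 10.50 and 10.35, while its relative Tpm1 rose by 0.84 (SE 0.15). Evl, an actin polymerization factor, differed by -1.56 and the exchange factor Vav3 by -1.38. Marcks, the relative of Marcksl1, did not pass (-0.02), nor did Actb (-0.28) or Cfl1 (-0.42). Of 15 integrins and adhesion molecules Pecam1, Itgal (at least 1.5-fold) and Cd81 (-0.65) fell and none rose (median -0.06), and 1 passed without Sox4fl/fl replicate 1. Of 5 genes of chemokine receptors and homing Cxcr5 alone passed, as a rise of 1.05 (list median -0.03), and Cxcr4 (-0.24) did not. In the adhesion list and in the chemokine list 20% passed, near the 16.4% of all genes. Selplg, the P-selectin ligand gene, did not pass (-0.51, adjusted p = 0.0548) but did under 6 alternatives, which made the chemokine list count 2.

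Several of the largest rises were genes known from neurons or ion channels. Of 17 measured neuronal genes 6 rose and 2 fell (median 0.32). Nav1 read 4.67, 4.42 and 4.52 against 7.96, 7.95 and 8.26, and Apbb1, an adaptor of the amyloid precursor protein, 6.02, 5.92 and 5.65 against 9.03, 9.02 and 8.96. Syndig1l reached 11.96, 12.12 and 12.01 from 9.36, 9.28 and 9.30, and Plxnd1, a semaphorin receptor gene, differed by 1.26. Tph1 and Lrrn3 were the other rises, and Arpp21 (-3.58) and Syt1 (at least 1.55-fold) fell. Several of these genes stood in the list because of their size in earlier results. Of 16 ion channel genes 4 rose and 4 fell (median -0.03). Besides Cacna1h, the potassium channel genes Kcnk6 (1.35) and Kcnk5 (0.78) and the calcium release channel gene Itpr3 (0.68) rose, while Trpv2 (-1.03), Kcnn4 (-0.79), Hvcn1 (-0.72) and Scn4b (-0.72) fell. The channel count was 5 without SE-Cre replicate 2 or Sox4fl/fl replicate 2.

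Signalling lists held members of both directions or falls alone. Of 19 cytokine receptor and STAT5 genes 2 rose and 4 fell (median 0.10): Il2ra and Stat5a (0.70) rose, and Osm (-1.71), Il10ra (-1.19), Cish (-0.75) and Il10rb (-0.68) fell. Of 21 genes of the Wnt pathway 2 rose and 6 fell (median 0.08). Csnk1e, a casein kinase 1 gene, fell at least 4.26-fold, and Tle5, a Groucho family member, went from 7.78, 7.92 and 7.67 to 6.32, 6.08 and 6.41. Tcf7l2 (-0.76), Lef1, Nkd2 (-0.74) and Fzd5 (-0.48, adjusted p = 0.0481) fell, Wnt5b (0.98) and Csnk1d (0.52) rose, and Ctnnb1, the beta-catenin gene, did not pass (-0.13). That count was 5 without Sox4fl/fl replicate 1 or 2, and the Fzd5 call was lost under 11 of 13 alternatives. Of 17 MAP kinase feedback and immediate early genes Fos (-0.97), Egr1 (-0.99), Dusp6 (-0.88) and Dusp4 (at least 1.52-fold) fell and none rose (median -0.23). Of 12 Notch pathway genes Lfng rose (0.74) and Maml2 (-0.60) and Hes1 (-0.64) fell (median -0.16), and 1 passed without Sox4fl/fl replicate 2. In the MAP kinase list 23.5% passed and in the Notch list 25%, against 16.4% of all genes. In the TNF superfamily 2 of 16 fell and 1 rose (median 0.02), or 18.8% passed against 16.4% of all genes. Tnfrsf19 fell at least 9.71-fold, Tnfrsf13c, the BAFF receptor gene, differed by -0.57 (adjusted p = 0.047) and Tnfrsf26 rose by 0.87. Only 1 of them was left without any Sox4fl/fl array.

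Chromatin genes fell more often than they rose. Of 30 Polycomb and chromatin genes 7 fell and 1 rose (median -0.17), or 26.7% passed against 16.4% of all genes. Satb1, a chromatin organizer, fell from 10.64, 10.68 and 10.49 to 9.56, 9.75 and 9.62. The Polycomb genes Bmi1 (-0.93), Cbx2 (-0.58), Phc1 (-0.56) and Ezh2 (-0.49) and the deacetylase gene Hdac4 (-0.59) fell less, and Hmgn3 rose by 0.75. Suz12 (-0.04) and Rnf2 (-0.02) did not pass. That count of 8 was 5 without SE-Cre replicate 1 or Sox4fl/fl replicate 1, 3 without Sox4fl/fl replicate 2 and 4 without Sox4fl/fl replicate 3. Of 12 linker and variant histone genes H1f10 and H3f3b (-0.49, adjusted p = 0.0324) fell and none rose (median -0.25). That is 16.7%, near the 16.4% of all genes that passed. The other linker histone genes measured, H1f1 (0.00), H1f2 (-0.10) and H1f5 (0.21), did not pass. That count was 1 without SE-Cre replicate 1 or 2 and 0 without any Sox4fl/fl array, where the filter removed H1f10.

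Glycolysis genes moved in both directions, and few genes of lipid synthesis or the cell cycle passed. In the glycolysis and hypoxia list 6 of 24 rose and 3 fell (median 0.05). Egln3, an oxygen-sensing hydroxylase gene, rose from 6.49, 6.63 and 5.88 to 7.87, 7.69 and 7.68, while Egln1 fell by 0.74. Slc2a3 (0.75), Pfkp (0.66), Aldoa (0.57), Tpi1 (0.54) and Ankrd37 (0.91) rose, and Aldoc (-0.83) and Vegfa (-0.53) fell, with 5 of the list past the threshold without Sox4fl/fl replicate 2. Over the alternatives without a minimum fold 3 to 7 of the list rose and 1 to 3 fell. Of 22 cholesterol and fatty acid genes Mvk rose (at least 1.23-fold) and Fads2 fell (-0.77; median -0.06), with 1 or 0 past the threshold when any array was left out. Of 37 cell cycle genes Plk1 rose (0.57) and Rrm2 fell (-0.46), and the median was 0.08. The count was 4 without background correction, and 1 or 0 with any array left out. Cdk1 (0.25), Ccna2 (-0.01), Mcm2 (0.04) and Cdkn1b (0.01) did not pass.

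Passed genes lay on every chromosome tested, from 13.6% of the kept genes of chromosome 13, which carries Sox4, to 21.1% of those of X. Among 8915 pairs of kept genes next to each other, 31 pairs passed with both members changed at least 2-fold, and 28 of these moved the same way, 21 down and 7 up. They included Casp1 with Casp4, Tmem176b with Tmem176a, Pecam1 with Milr1, S100a11 with S100a10, and H2-DMa with the H2-DMb genes. Pairs of near-identical copies, such as Lyz2 with Lyz1, count among them. Pairs can share a gene, as N4bp3 does, and Tnfrsf21 and Rcan2 start 784797 bases apart. Over all 8944 genes, 280 fell and 145 rose at least 2-fold. Whether neighbours moved together more often than other pairs was not tested. The pairs named here were chosen after their values were seen.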

How the data were processed

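Illumina mouse bead arrays with 1 colour measured total RNA. The authors deposited intensities that are not normalized, on a linear scale and without background subtraction to judge by the values, each with a detection p-value, per the file headers. A deposited table of processed intensities holds the same arrays after quantile normalization, judged by its values: on each of the 6 arrays at least 99.96% of values came within 0.011 of the average sorted intensity. The submitters' processing notes name R 3.0.1. Bead summarization, scanner software and probe positions are not given in the sources used here.

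The 6 arrays were normalized alone by limma's neqc (version 3.58.1, under R 4.3.3, offset 16), which inferred the negative controls from detection p-values. Probes detected on at least 3 of 6 arrays were kept, and lmFit and eBayes compared the group means, with Benjamini-Hochberg adjustment over all kept probes and a threshold of 0.05. The fit was tested on simulated data. Of 45281 probes, 34885 carried 1 gene symbol in the platform annotation, 18 carried several and 10378 carried none. Of the last, 345 of 2479 kept ones passed and are not named. A gene was read by its brightest kept probe. The number of arrays, 3 per group, limits the precision.

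The members, lists and tests were chosen with earlier results of these data known. The 38 lists held 824 different genes, of which 763 were on the array and 515 were kept. Named are Sox4, the 30 largest rises and 30 largest falls past the threshold whose groups do not overlap, up to 5 members of each list by smallest p, and the pro-B markers. List members beyond these were named after their values were seen. Of the largest rises 1 gene, and the counts of 1 list, are not reported here. Same-numbered deviations from the group means correlated at 0.011, 0.0021 and 0.041. These values show no shared replicate effect but cannot tell whether the samples were paired.

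Alternatives were the authors' processed values, no background correction, common-median scaling, no detection filter, detection on every array, a trended robust variance, a block for replicate number, leaving out each array, a minimum of 1.5-fold and the mean of a gene's probes. The files give no slide or scan.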

Additional observations from a re-analysis of the deposited data

How the results depend on the processing

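The fall of Sox4 kept its direction and its call under every alternative that held its probe, with log2 differences between -6.18 and -5.98 when an array was left out, and it had no value with detection required on every array. The passed probes numbered 1536 to 1996 and the passed genes 943 to 1177 when each array was left out. A minimum of 1.5-fold left 471 probes and 318 genes. With the replicate number as a block 2387 probes and 1393 genes passed, and no Sox4 call changed. Common-median scaling gave 719 higher and 1498 lower probes, 32.4% higher. Of 244 named genes 198 passed, and 140 of these passed under every alternative without a minimum fold in which they were tested, 58 were lost under at least 1, and 96 also passed the 1.5-fold minimum. None reversed. Fzd5, Tnfrsf13c, Aars, Atf4, H3f3b, Mvk and Sesn3 lost their calls under at least 8 alternatives. Of the 46 that did not pass, 19 did under at least 1 alternative. Dim probes have folds that depend on the background.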
